A study of Mus musculus with 5 samples.

Results

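The myogenic regulatory factors Myod1, Myog, Myf5 and Myf6 and the myocyte enhancer factor genes Mef2a, Mef2b, Mef2c and Mef2d were followed across 5 RNA sequencing libraries of B16F10 cells, a mouse melanoma line. The 8 genes were taken by symbol from a deposited table of 54699 genes, in which each symbol was found once, and were chosen as families with earlier results of these data known. Each of the 5 cultures received a lentivirus, was kept in serum-containing DMEM and gave 1 library. The Myod1 expression and Pparg expression libraries come from cells forced to express the mouse genes, collected on day 8, as was their shared control, infected with the empty expression vector. The Setdb1 knockdown library comes from cells with a short hairpin RNA against Setdb1, collected on day 7, as was its control, infected with the empty knockdown vector. Pparg is a nuclear receptor of fat cells and Setdb1 a histone methyltransferase. The labels call both empty vector groups wild type. The promoter that drives the introduced genes, and whether each culture was a clone or a pool of infected cells, are not given in the sources used here. Each group being 1 library, differences have no replicate check, and p-values are not given.

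The myogenic regulatory factors are basic helix-loop-helix transcription factors that bind the E-box, a short DNA motif, as dimers with the widely expressed E proteins. Myod1 and Myf5 act early, in the commitment of cells to skeletal muscle, Myog drives terminal differentiation, and Myf6 acts mostly in later muscle. Id proteins lack a basic region and hold E proteins in dimers that do not bind DNA. The Mef2 proteins are MADS-box factors that bind A/T-rich sites beside E-boxes in many muscle genes and work with the myogenic factors, and class IIa histone deacetylases such as Hdac4 and Hdac5 hold them in check. Mef2 genes are also active outside muscle.

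Levels are given as FPKM (fragments per kilobase, with library size divided out by the authors), so that genes of different length can be set side by side. The deposited values allowed the reads per gene to be recovered, and the libraries held between 16214802 and 18300670 reads on genes. Intervals on levels are Wilson intervals (95%) for the part of a library's reads that fell on the gene, and those on folds are 95% exact intervals on the reads of both libraries, and all cover counting error only. A gene was compared where its FPKM was at least 1 in at least 1 library, which 12842 genes met, by the difference of log2(FPKM + 1). It was called at a difference of at least 1, that is 2-fold, and for genes near 0 the added 1 makes this difference smaller than the true one. Between the empty vector libraries, which had other vectors and days, 2.67% of the genes compared were called (1.23% higher, 1.44% lower in the empty knockdown vector library), and none of the members was. Of the 8 members 6 were compared. Myod1 and Myog passed that filter through the Myod1 expression library alone, Mef2b through the Myod1 expression and Setdb1 knockdown libraries, and Myf5 and Myf6 did not pass. The other targeted genes followed their labels: Pparg had 2514 reads in its own library and 0 in the other 4, and 8.83% of the Setdb1 level of the empty knockdown vector control was left in the knockdown.

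Of the myogenic regulatory factors, Myod1 and Myog were abundant in the Myod1 expression library and had no read in any other library. Myod1 (ENSMUSG00000009471, chromosome 7, 46376474 to 46379099, GRCm38) had an FPKM of 260.1 (254 to 266) in that library, from 7610 reads, and 0 reads in the Pparg expression, Setdb1 knockdown and both control libraries. It was at least 2635-fold higher than in the empty expression vector control, with that control set to a floor of 3 reads. Reads of the introduced and of the endogenous Myod1 cannot be told apart in counts per gene. Myog (ENSMUSG00000026459, chromosome 1, 134289989 to 134292548) was not introduced and had an FPKM of 948 (936 to 961) in the Myod1 expression library, from 22295 reads. It too had 0 reads in the other 4 libraries, so the difference from the control was at least 7721-fold. On the per-length scale Myog stood 3.65 times above the Myod1 total and ranked 42nd of all genes of the table in that library, against 217th for Myod1. The Myod1 value rests on the annotated length of 1861 bases, which the introduced transcript need not share, so this ratio is uncertain. The log2 ratios of Myog (9.89) and Myod1 (8.03) are set in part by the pseudocount of 1, since the control had 0 reads, and came to 13.2 and 11.3 with a pseudocount of 0.1. More cells with these transcripts and more transcript per cell cannot be told apart in RNA from a whole culture.

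Myf5 and Myf6, which lie next to each other on chromosome 10, were at or near 0 everywhere. Myf5 (ENSMUSG00000000435, 107482908 to 107486134) had 0 reads in all 5 libraries. The limit that a count of 0 allows, taken as 3 reads, was a Myf5 FPKM of 0.0916 in the Myod1 expression library and between 0.0751 and 0.0882 in the other 4. The upper Wilson bounds, which the plot of levels shows, were 0.117 and between 0.0962 and 0.113. Myf6 (ENSMUSG00000035923, 107492853 to 107494737) had 3 reads in the Myod1 expression library, an FPKM of 0.151 (0.0514 to 0.444), and 0 reads in the other 4. The 3 reads equal the floor, so no fold is given. In the Myod1 expression library the family was therefore made of Myod1 and Myog, and in the other 4 libraries no member was detected.

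**Figure D1:**
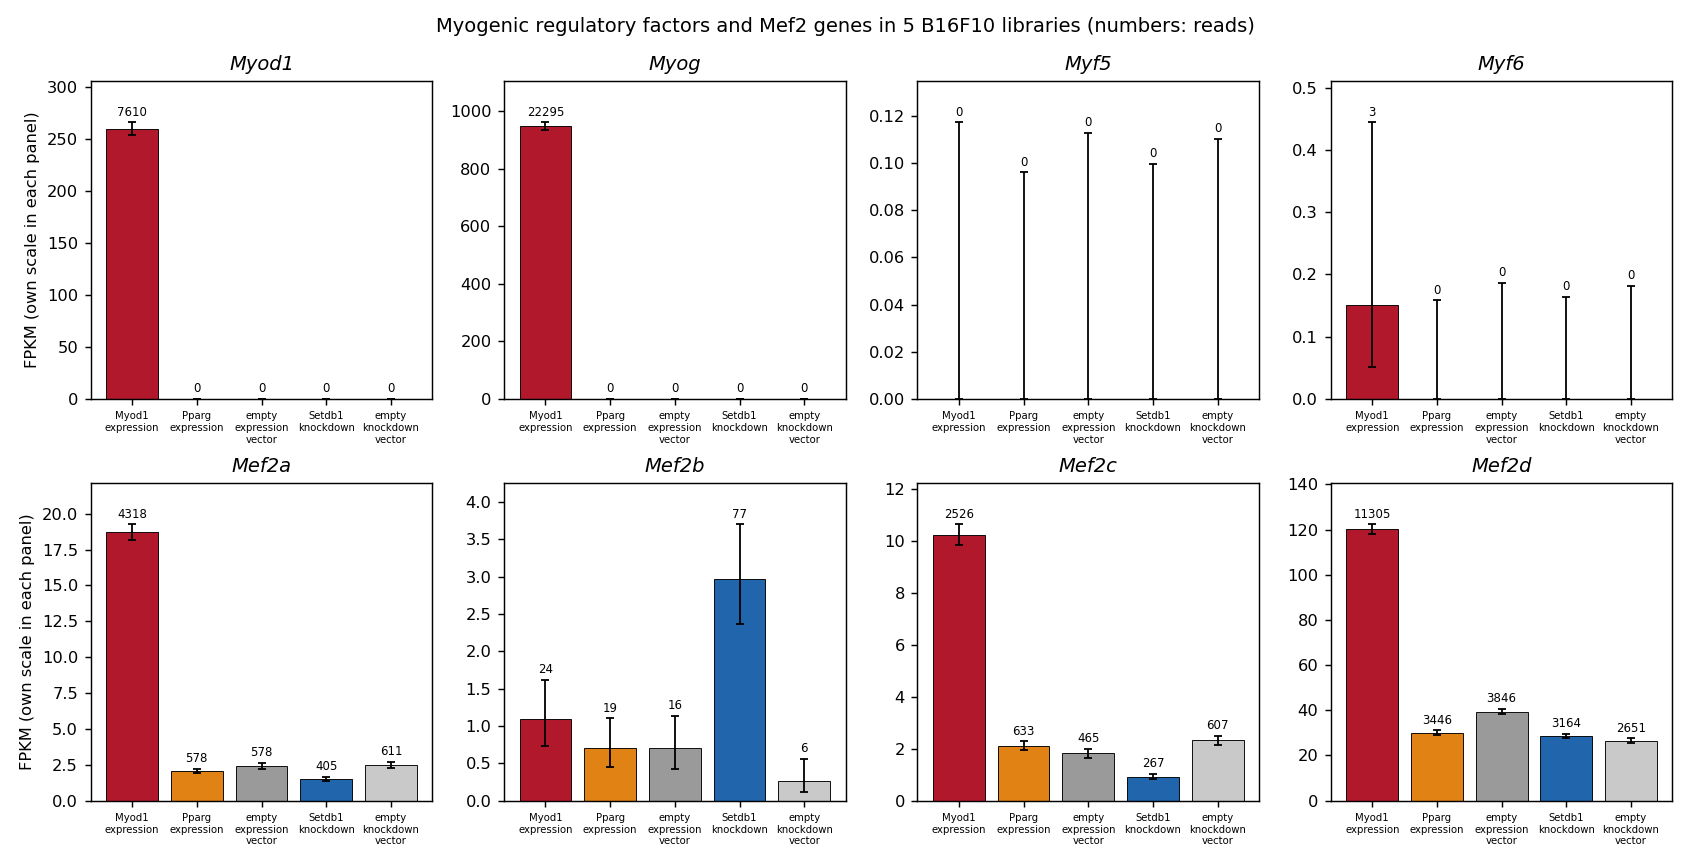
FPKM of the 8 genes (y axis, linear, own scale in each panel) in the 5 libraries (x axis), 1 bar per library with its 95% Wilson interval and its reads above it. Myod1 (260.1) and Myog (948) appear in the Myod1 expression library alone, Mef2a, Mef2c and Mef2d are highest there, and Mef2b is highest in the Setdb1 knockdown library (2.96).

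Since Myog went from 0 reads to one of the highest levels in the library, the 250 bases before its RefSeq start are shown first, with those of the 3 Mef2 genes that were also higher, for the E-box (CANNTG, the same on both strands) and the MEF2 consensus motif of 10 letters that the Mef2 proteins bind. RefSeq (GRCm38.p6) gave a window for 6 of the 8 members. Capitals mark E-boxes and any match to the MEF2 consensus with at most 1 mismatch, a limit set after the Myog window had been seen. The windows are given 5′ to 3′ on the strand of the gene, from chr1:134289754-134290003 (plus strand) for Myog, chr7:67372859-67373108 (minus) for Mef2a, chr13:83503784-83504033 (plus) for the first of 3 Mef2c starts and chr3:88142122-88142371 (plus) for Mef2d.
Myog: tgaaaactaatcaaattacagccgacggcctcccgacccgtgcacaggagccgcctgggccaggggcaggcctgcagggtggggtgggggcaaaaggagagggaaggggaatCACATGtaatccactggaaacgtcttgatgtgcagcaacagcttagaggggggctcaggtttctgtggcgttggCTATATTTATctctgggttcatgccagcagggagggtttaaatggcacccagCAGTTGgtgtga
Mef2a: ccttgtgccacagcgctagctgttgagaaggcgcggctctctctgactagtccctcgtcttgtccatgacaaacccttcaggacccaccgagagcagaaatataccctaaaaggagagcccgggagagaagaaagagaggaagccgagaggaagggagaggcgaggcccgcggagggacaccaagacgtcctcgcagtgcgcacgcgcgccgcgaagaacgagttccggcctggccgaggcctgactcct
Mef2c: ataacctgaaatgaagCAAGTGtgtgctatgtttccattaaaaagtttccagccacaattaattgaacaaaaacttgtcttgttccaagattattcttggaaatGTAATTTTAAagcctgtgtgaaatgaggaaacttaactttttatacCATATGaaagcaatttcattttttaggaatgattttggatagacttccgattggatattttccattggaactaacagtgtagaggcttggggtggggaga
Mef2d: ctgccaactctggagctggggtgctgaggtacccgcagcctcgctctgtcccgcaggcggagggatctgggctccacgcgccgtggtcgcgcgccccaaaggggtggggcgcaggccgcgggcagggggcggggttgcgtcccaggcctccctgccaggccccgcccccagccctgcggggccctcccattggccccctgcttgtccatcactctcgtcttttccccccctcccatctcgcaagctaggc

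The Myog window holds the E-boxes CACATG, 138 to 133 bases before the RefSeq start, and CAGTTG, 12 to 7 bases before it. The window ends at 134290003, while the gene model of the counts starts at 134289989. CAGTTG thus lies inside that model and is upstream by the RefSeq start only. Between the 2 E-boxes lies CTATATTTAT, 64 to 55 bases before the RefSeq start, which differs from the MEF2 consensus at 1 of its 10 positions. At least 2 E-boxes together with such a MEF2 match were found in 8.91% of the 32851 RefSeq windows of this length, at least 1 E-box in 66.2% and a MEF2 match with at most 1 mismatch in 25.0%, while all 10 positions were matched in 2.92%. The first Mef2c window holds the E-boxes CAAGTG and CATATG and the near match GTAATTTTAA. The second Mef2c window holds 2 near matches and no E-box, and the third 1 E-box and no near match. The Mef2b window holds 1 E-box and no near match. No match of either kind lies in the Mef2a or Mef2d windows, nor in that of Myf5. None of the MEF2 matches overlaps an E-box. A match is a run of letters, and no binding was measured.

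Among the Mef2 genes, 3 of 4 were at least 2-fold higher in the Myod1 expression library than in the empty expression vector control, and all 3 were also at least 2-fold higher than in the other control. Of all genes compared, 14.0% were called higher and 7.55% lower in this comparison, and 11.9% higher against both controls. The split of 1798 higher and 970 lower genes became 1238 and 1907 when each library was divided by its column sum. The median log2 ratio of the 4 genes was 1.79, against 0.02 over all genes compared. Because 1 of them passed the filter partly through this library, the genes are given one by one.

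Mef2a (ENSMUSG00000030557, chromosome 7, 67231163 to 67372858) is a broadly expressed member that is prominent in mature muscle. It had an FPKM of 18.7 (18.2 to 19.3) with Myod1 expression, 2.05 with Pparg expression, 2.41 in the empty expression vector control, 1.49 with Setdb1 knockdown and 2.49 in the empty knockdown vector control. The Myod1 expression library stands far above the other 4, of which that of Setdb1 knockdown is the lowest. The fold over the control was 7.76 (7.11 to 8.48), and 7.52 over the other control. Of the genes compared, 2.90% had a larger log2 ratio than its 2.53.

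Mef2c (ENSMUSG00000005583, chromosome 13, 83504034 to 83667080), needed for heart and muscle development, was also highest in the Myod1 expression library. Its FPKM was 10.2 (9.83 to 10.6) with Myod1 expression, 2.10 with Pparg expression, 1.81 in the empty expression vector control, 0.918 with Setdb1 knockdown and 2.31 in the empty knockdown vector control. It was 5.64-fold (5.11 to 6.24) higher with Myod1 expression, a log2 ratio of 1.997 that 4.36% of the genes compared exceeded, and 4.43-fold (4.05 to 4.84) higher than the other control.

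Mef2d (ENSMUSG00000001419, chromosome 3, 88142372 to 88172086) had the highest level of the family in every library. Its FPKM was 120.1 (118 to 122) with Myod1 expression, 30.04 with Pparg expression, 39.3 in the empty expression vector control, 28.6 with Setdb1 knockdown and 26.5 in the empty knockdown vector control. Its fold over the control was 3.05 (2.94 to 3.17), the smallest of the 3 against that control. The control libraries themselves differed, with a log2 ratio of -0.55 for empty knockdown over empty expression vector, and 93.2% of the genes compared had a higher ratio there. Over the other control the fold was 4.53 (4.35 to 4.73), close to that of Mef2c.

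Mef2b (ENSMUSG00000079033, chromosome 8, 70139711 to 70167488), the member best known from B lymphocytes, was near the limit of detection in 4 libraries. It had 24 reads with Myod1 expression, an FPKM of 1.09 (0.731 to 1.62), and 16 reads, 0.698 (0.429 to 1.13), in the empty expression vector control. The fold of 1.56 had an interval of 0.794 to 3.14, so a difference from that control was not detectable at this depth. Against the other control, with 6 reads, the fold was 4.25 (1.69 to 12.7).

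The transcript annotation bears on these values. In GENCODE release M21 the merged exon length of each of the 8 genes equals the length in the deposited table. The exons of Mef2a overlap those of Lysmd4 on the opposite strand over 302 bases (2.06% of the exon length), and those of Mef2d overlap the antisense gene 1700113A16Rik over 531 bases (8.87%). Whether reads were assigned by strand is not given in the sources used here. The antisense gene had at most 6 reads in any library, against at least 2651 for Mef2d.

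**Figure D2:**
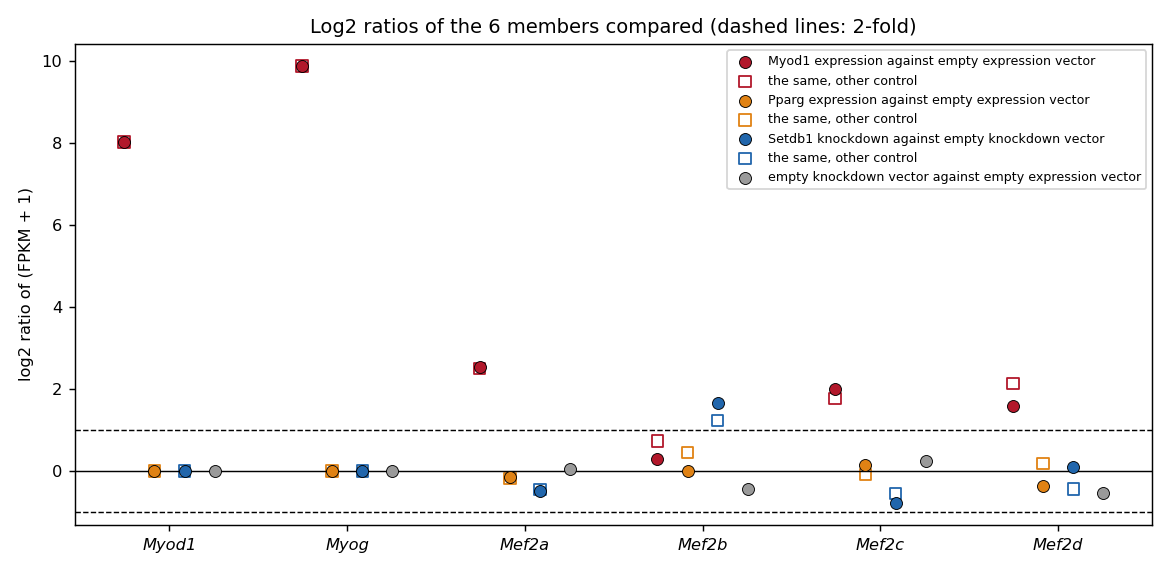
Log2 ratio of FPKM + 1 (y axis) of the 6 members compared (x axis), as filled circles for the 3 treated libraries against their own control and for the control libraries against each other, and as open squares against the other control. Myod1, Myog, Mef2a, Mef2c and Mef2d lie above the 2-fold line in the Myod1 comparison with either control, and Mef2b does so in the Setdb1 comparison.

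With Setdb1 knockdown, no myogenic regulatory factor was detected, and 1 of the 4 Mef2 genes, Mef2b, was called higher, where 19.7% of all genes compared were called, 9.34% higher and 10.3% lower. Against both controls, which Mef2b also passed, 5.80% were higher and 7.56% lower. Scaling to the recovered reads gave 1328 higher and 1269 lower genes, and the 75th percentile 1019 and 1547. Mef2b had 77 reads and an FPKM of 2.96 (2.37 to 3.70), while its control, the empty knockdown vector library, had 6 reads and 0.256 (0.117 to 0.558). The fold was 11.6 with a wide interval of 5.09 to 32.6, and it was 4.25 (2.46 to 7.80) over the other control, which had more reads. The interval of the knockdown library does not overlap that of any other library. One annotated Mef2b transcript starts within Borcs8, its upstream neighbour on the same strand, and 62 bases (4.42%) of Mef2b exon are shared with it. Borcs8 had an FPKM of 20.0 with knockdown and 12.95 in the control, 1.54-fold (1.34 to 1.78) higher. The part of shared transcripts in the Mef2b value was not tested.

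The other 3 Mef2 genes were not called in that comparison. Mef2c was lower, 0.918 against 2.31, a fold of 0.397 (0.343 to 0.46) but a log2 ratio of -0.79 on the scale with the pseudocount of 1. With a pseudocount of 0.1 it passed the 2-fold limit. Against the other control the fold was 0.507 (0.434 to 0.59). Mef2a stood at 0.599-fold (0.527 to 0.68) and Mef2d at 1.08-fold (1.02 to 1.14), and Mef2d turned to 0.726-fold (0.693 to 0.761) against the other control. The RNA order of the family therefore differed in the knockdown library, where Mef2b came second after Mef2d, ahead of Mef2a and Mef2c. In both controls Mef2b was the lowest.

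With Pparg expression none of the members compared was called, where 6.52% of all genes compared were, 4.22% higher and 2.30% lower (3.34% and 0.849% against both controls). The split of 542 higher and 295 lower genes became 736 and 227 under scaling to the recovered reads. Mef2a had a fold of 0.852 (0.758 to 0.958), Mef2c 1.16 (1.03 to 1.31) and Mef2d 0.764 (0.729 to 0.80). Against the other control Mef2c stood at 0.91 (0.813 to 1.02) and Mef2d at 1.13 (1.08 to 1.19), so neither Mef2c nor Mef2d kept its direction. Mef2b had 19 reads and a fold of 1.01 (0.493 to 2.10), and 2.76 (1.06 to 8.45) against the other control. The levels of Mef2a and Mef2c in this library, 2.05 (1.89 to 2.23) and 2.10 (1.94 to 2.27), did not differ beyond counting error, nor did those in the empty knockdown vector control, 2.49 (2.299 to 2.69) and 2.31 (2.13 to 2.501) for the same genes.

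Added together, the 4 Mef2 genes had a summed FPKM of 150.1 with Myod1 expression, 34.9 with Pparg expression, 44.3 in the empty expression vector control, 33.9 with Setdb1 knockdown and 31.5 in the empty knockdown vector control. The sum was 3.39 times that of the control with Myod1 expression. Mef2d made up between 80.01% and 88.9% of it in every library. The share of Mef2a was 12.5% in the Myod1 expression library and between 4.39% and 7.89% in the others, and Mef2b reached 8.73% with Setdb1 knockdown, against at most 2.02% elsewhere. Such shares within a library do not depend on how libraries are scaled to each other.

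The E proteins and Id genes, partners and inhibitors of the myogenic factors, were read on the same scale. Tcf3, which encodes E12 and E47, had an FPKM of 25.1 with Myod1 expression, 32.7 with Pparg expression, 37.8 in the empty expression vector control, 18.2 with Setdb1 knockdown and 32.2 in the empty knockdown vector control. Tcf12, which encodes HEB, had 10.1, 9.46, 17.5, 2.996 and 17.6 in the same order. The knockdown library is lowest for both. None of the 3 E protein genes was called with Myod1 or Pparg expression, and Tcf12 was called lower with Setdb1 knockdown, at 0.17-fold (0.158 to 0.183). Over all genes compared, 21.6% and 6.52% were called with Myod1 and Pparg expression, and 10.3% were lower with knockdown. Tcf3 had a log2 ratio of -0.79 in that comparison and -1.01 against the other control. Under division by the column sum Tcf12 also passed the limit in the Myod1 comparison, at a log2 ratio of -1.09. Tcf4 stayed between 0.397 and 1.09.

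Of the 4 Id genes, Id4 had 0 reads in all libraries and the other 3 were all called higher with Myod1 expression. Among all genes compared, 14.0% were called higher. Id3 had an FPKM of 55.5 with Myod1 expression, 34.7 with Pparg expression, 2.15 in the empty expression vector control, 28.3 with Setdb1 knockdown and 2.44 in the empty knockdown vector control. All 3 treated libraries lie well above both controls, which do not differ beyond their intervals. Id1 had 14.9 (13.2 to 16.8) with Myod1 expression and 0.792 (0.48 to 1.31) in the control, 18.8-fold (11.2 to 34.1) higher. Id2 had 43.95 against 12.5, but the controls differed in it by a log2 ratio of 1.10, and against the other control its ratio fell to 0.63, under the limit.

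**Figure D3:**
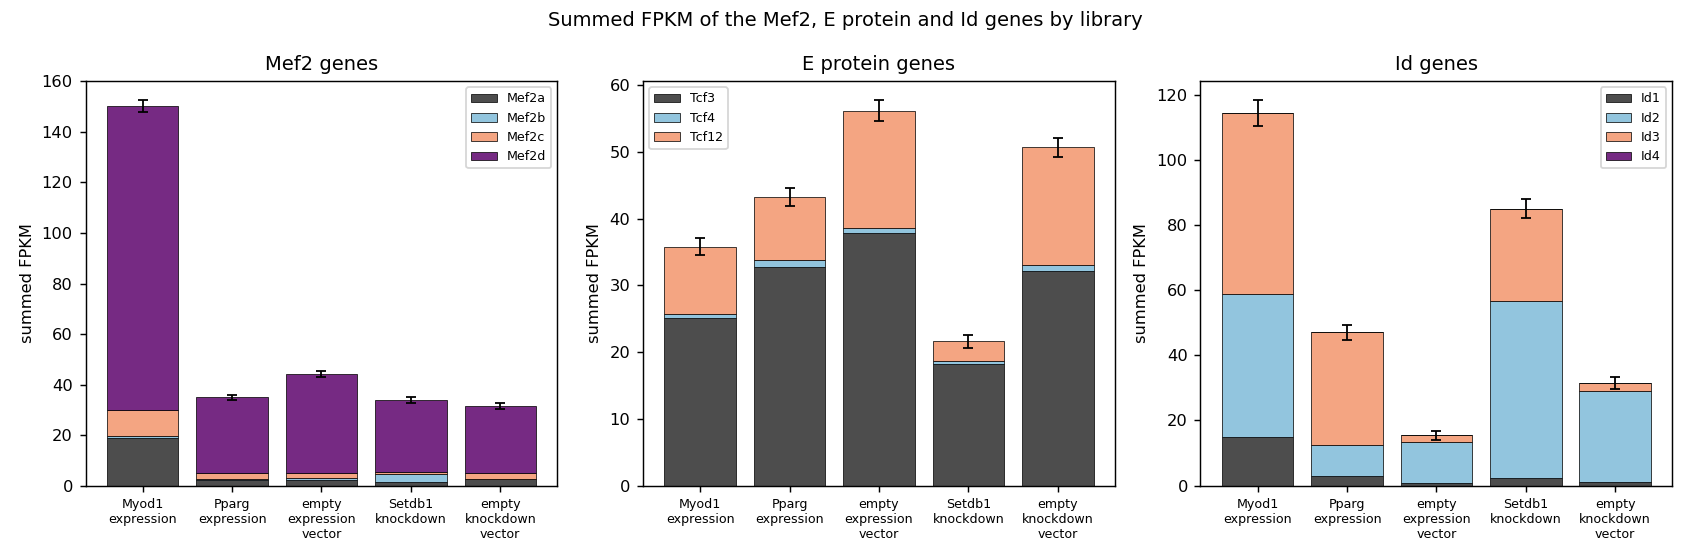
Summed FPKM (y axis) of the 4 Mef2 genes, the 3 E protein genes and the 4 Id genes in the 5 libraries (x axis), stacked by gene, with 95% counting intervals of the sums. The Mef2 sum is highest with Myod1 expression (150.1), the E protein sum lowest with Setdb1 knockdown (21.6), and the Id sums of the treated libraries (47.05 to 114) exceed those of the controls (15.4 and 31.4).

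The ratio of summed Id to summed E protein FPKM, which is free of scaling between libraries, was 3.19 with Myod1 expression, 1.09 with Pparg expression, 0.275 in the empty expression vector control, 3.93 with Setdb1 knockdown and 0.62 in the empty knockdown vector control. It was thus above 1 in all 3 treated libraries and below 1 in both controls, which themselves differed. In the Myod1 expression library the summed myogenic factors stood at 10.6 times the summed Id genes and 33.8 times the summed E proteins.

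Of the 13 other inhibitors of the factors, 7 were compared, and with Myod1 expression 2 were called higher and 2 lower. The shares over all genes compared were 14.0% higher and 7.55% lower. Snai1, a repressor that competes for E-boxes, had 71 reads against 0, at least 24.6-fold higher, and Hes1, a Notch target, was 4.02-fold higher with a log2 ratio of 1.28 that came to 0.999 under the column sum. Bhlhe40 (log2 ratio -1.12) and Mdfic (-1.34) were lower, and Bhlhe40 came to -0.31 against the other control. Bhlhe41 (-0.88) was also called lower under the column sum (-1.25), the 75th percentile and the recovered reads. Twist1, Twist2 and Msc had 0 reads in every library. With Setdb1 knockdown Hes1 (1.30) and Mdfi (1.28), which encodes an inhibitor of myogenic factors, were higher, Mdfi at 0.95 against the other control. Over all genes compared, 9.34% were called higher with knockdown.

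Of the 12 upstream regulators, 7 were compared, and with Myod1 expression 2 were called higher, among them Pitx3, and 1, Pax3, lower. Among all genes compared, 14.0% were higher and 7.55% lower. Pitx3, a homeodomain factor, had 48 reads against 0, at least 16.6-fold. Pax3, a paired-box factor of muscle precursors and of melanocytes, had 10.1 with Myod1 expression, 21.1 with Pparg expression, 32.7 in the empty expression vector control, 15.5 with Setdb1 knockdown and 27.03 in the empty knockdown vector control. Pax7, the satellite cell factor, was at 0 reads in all libraries but that of Setdb1 knockdown, which had 1 read. Eya1, a transcriptional coactivator, was called lower with Pparg expression (-1.32) and Setdb1 knockdown (-1.37), and with Myod1 expression (-0.73) only under the column sum (-1.04).

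Of 14 coactivators and chromatin partners, 13 were compared, and 2 of them were called with Myod1 expression, both higher. Over all genes compared, 21.6% were called and 14.0% were higher. Smarcd3, the BAF60c subunit through which chromatin remodelling is brought to Myod1 targets, had an FPKM of 38.6 with Myod1 expression and between 1.77 and 2.52 in the other 4 libraries, 21.8-fold (18.5 to 25.9) over the control. Rb1, the retinoblastoma gene, had 8.19 with Myod1 expression, 8.20 with Pparg expression and 2.37 in their shared control, and 1.60 against 2.75 with Setdb1 knockdown. Kdm1a, a histone demethylase, was the 1 gene of the list called with knockdown, at 0.393-fold (0.362 to 0.427). Of all genes compared, 19.7% were called with knockdown and 10.3% were lower.

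Of 13 regulators of Mef2 activity, 11 were compared, and with Myod1 expression 2 were called, Sik1 and Rcan1, both higher, where 21.6% of all genes compared were called. Sik1, a kinase that keeps class IIa histone deacetylases out of the nucleus, had an FPKM of 51.1 with Myod1 expression, 2.94 with Pparg expression, 2.36 in the empty expression vector control, 12.5 with Setdb1 knockdown and 2.996 in the empty knockdown vector control. Under the column sum the list had 1 higher and 2 lower, as Rcan1, a calcineurin regulator, lost its call (0.81) and Hdac7 (-1.05) and Camk2d (-1.09) passed the limit. Hdac9, which was not compared because its FPKM was below 1 in every library, had 216 reads against 8, a 28.1-fold (14.0 to 65.8) difference. With Setdb1 knockdown Sik1 (1.76) and Hdac5 (1.26) were called higher, Hdac5 at 0.76 against the other control. Among all genes compared, 9.34% were called higher with knockdown.

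Of 13 SRF and TEAD partners, 11 were compared, and Srf and Tead4 were called higher with Myod1 expression. The share of all genes compared called higher was 14.0%. Srf, which like the Mef2 genes encodes a MADS-box factor, had an FPKM of 127 against 27.5, 4.64-fold (4.37 to 4.93). Tead4, which binds many muscle promoters, had 53.2 with Myod1 expression, 2.36 with Pparg expression, 9.70 in the empty expression vector control, 15.4 with Setdb1 knockdown and 7.30 in the empty knockdown vector control. It was higher with Myod1 expression and lower with Pparg expression (log2 ratio -1.67) than the same control. With Setdb1 knockdown Tead1 (-1.92) and Vgll3 (-1.30) were called lower, Vgll3 at -0.33 against the other control. The share of all genes compared called lower with knockdown was 10.3%. The median of this list in the Myod1 comparison, 0.34, turned to -0.01 under the column sum.

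Genes known to be driven by the myogenic factors or by Mef2 were read next, as a list chosen with results of these data known. Of 21 targets of the myogenic factors, 20 were compared and all 20 were called higher with Myod1 expression, against both controls as well, with a median log2 ratio of 8.03, or 11.3 without pseudocount and with values under 3 reads set to 3 reads. Over all genes compared, 14.0% were called higher, and 11.9% against both controls. Many of the 20 targets passed the filter through the Myod1 expression library alone, and 13 had at most 3 reads in the control. Mymk and Mymx, which encode the proteins that fuse myoblasts, had FPKM values of 642 and 458 against 0 reads, and Chrng, the fetal acetylcholine receptor subunit, 393 against 0 reads. The gene not compared was Fgfr4, whose highest FPKM was 0.353, with Pparg expression. With Setdb1 knockdown Chrnb1 (1.47), Des (1.35) and Cdkn1a (1.13) were called higher, where 9.34% of all genes compared were, and the median was 0.00. In the empty knockdown vector control 13 of the 20 targets had at most 3 reads, so that median is no measure of unchanged expression.

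Of 13 targets of Mef2, 12 were compared, and 10 were called higher with Myod1 expression, with a median log2 ratio of 4.88, or 8.07 with the floor of 3 reads. Over all genes compared, 14.0% were called higher. Of the 12 targets, 4 had at most 3 reads in the control, and Smyd1 passed the filter through the Myod1 expression library alone. Smyd1, a muscle methyltransferase, had an FPKM of 271 against 0 reads, and Lmod3, a nucleator of actin filaments, 65.3 against 0 reads. Jun (-0.84) and Ppargc1a (-0.19) were the compared targets not called. Under the column sum, the 75th percentile and the recovered reads alike 9 were called higher and 1 lower, as Nr4a1 (1.14, as low as 0.77) lost its call and Jun (as low as -1.21) passed the limit. With Setdb1 knockdown Klf2 (3.79), Jun (2.45) and Pgam2 (1.30) were called higher and Ppargc1a (-1.63) lower. The shares of all genes compared were 9.34% higher and 10.3% lower. Jun differed by -0.79 between the controls and stood at 1.66 against the other control.

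**Figure D4:**
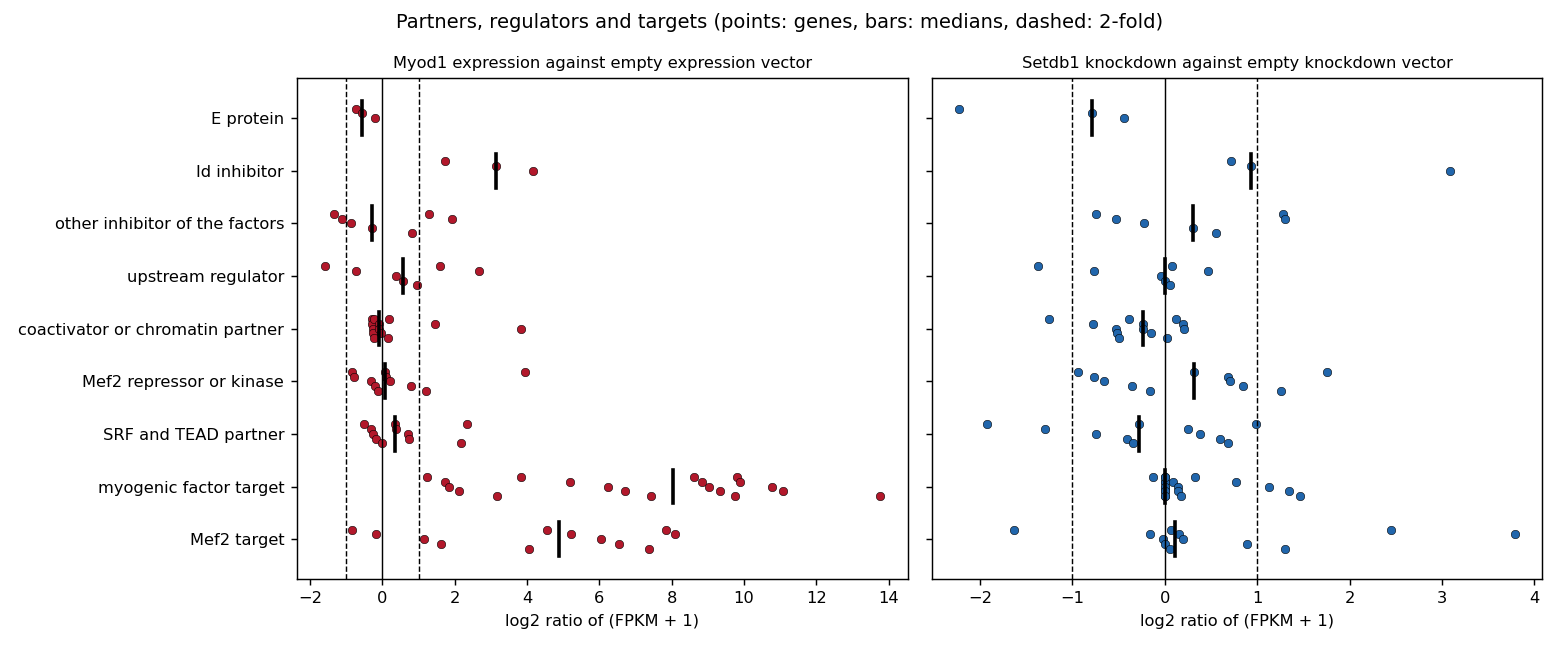
Log2 ratio of FPKM + 1 (x axis, own scale in each panel) of the compared genes of 9 lists (y axis), each point a gene and each bar a median, for Myod1 expression (left) and Setdb1 knockdown (right) against their controls. The targets of the myogenic factors (median 8.03) and of Mef2 (4.88) lie far to the right with Myod1 expression, while the medians with knockdown are 0.00 and 0.11. In the empty knockdown vector control 13 of 20 and 4 of 12 of these targets had at most 3 reads. Many targets of the myogenic factors passed the filter through the Myod1 expression library alone, so their median of 0.00 is no measure of unchanged expression.

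The genes whose pattern over the 5 libraries was most like that of each member were found among 10890 other protein-coding genes, by the root mean square difference of log2(FPKM + 1) profiles centred on their mean. The 3 nearest to Myod1 were Smyd1 (0.02), Hfe2 (0.03) and Acta2 (0.05), with FPKM values of 271, 255 and 267 in the Myod1 expression library and at most 0.0879 elsewhere. Those nearest to Myog were Ckm (0.04), Myl4 (0.06) and Tnni1 (0.15), with 894, 1119 and 874. Since Myod1 and Myog were seen in the Myod1 expression library alone, nearness among other such genes depends mostly on the level there. For Mef2a they were Akip1 (0.06), Twf2 (0.11) and BC051019 (0.15), and for Mef2c Tm7sf2 (0.08), Sh3bp5 (0.11) and Gpr37 (0.12). Mef2d was nearest to Snx29 (0.06), Pacs2 (0.10) and Trak1 (0.10). For Mef2b they were Hspa2 (0.04), Pias4 (0.06) and Gtpbp6 (0.06), of which Pias4 had an FPKM of 44.8 with Setdb1 knockdown and 15.1 in its control. These values describe 5 libraries and carry no test.

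Markers of the labelled cells and of others were read beside the members. All 8 melanocyte markers were at an FPKM of at least 1 in every library, with summed levels of 3306 with Myod1 expression, 2308 with Pparg expression, 9098 with Setdb1 knockdown and 7816 and 8542 in the controls. In the Myod1 comparison 5 of the 8 were called lower (6 under each other scaling), among them Mitf, the melanocyte master regulator, with 8.03 against 28.7. With Pparg expression 6 of the 8 were called lower, and 5 under the column sum and the recovered reads, where Slc45a2 lost its call. With Setdb1 knockdown 2 were, Mitf (log2 ratio -1.54) and Slc45a2 (-1.49), a pigment cell transporter, although the summed level was not lower than in the controls. Of the 4 satellite cell markers, Pax7 was at 0 with Myod1 expression while Cdh15 (186 against 0.0751) and Itga7 (31.0 against 0.28) were higher and Pax3 (10.1 against 32.7) was lower. The summed level of the 4 was 227 there and between 15.9 and 33.1 elsewhere, where most of it was Pax3. Itga7 was also called higher with Pparg expression (log2 ratio 2.07). Cdh15 also stands among the targets of the myogenic factors. The summed levels of the fibroblast markers lay between 0.438 and 2.50, with Dcn and Lum at 0 in every library. Those of the leukocyte, endothelial and epithelial markers were at most 0.0982, 0.596 and 0.195, with Cd3e, Kdr, Epcam and Krt14 at 0 reads in every library.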

How the data were processed

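Per the submitters' processing notes, CASAVA, HISAT2 and featureCounts 1.5.0-p3 with build GRCm38 were used; their settings are not given in the sources used here. The authors deposited 1 table of FPKM values for 5 libraries, already scaled between libraries. Values times gene length were whole multiples of 1 step for 100% of the values above 0 (tolerance 0.01 reads), which gave the reads per gene. Column sums of FPKM ranged from 297582 to 420545.

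Computed here, with Python 3.11.15, pandas 2.3.3 and scipy 1.17.1, were log2 ratios of FPKM + 1, called at 2-fold, intervals, sums and list counts. A count test was not used, since each group has 1 library. Folds against 0 reads used a floor of 3 reads. Scripts were tested on simulated data. The 8 members and the 15 lists of other genes were chosen with earlier results of these data known. Named are all members, the E protein and Id genes and, per other list, the genes with the largest calls; other genes were named after their values were seen. The values of 1 upstream regulator are not reported here. The older symbols Mkl1 and Mkl2 stand for 2 list genes. Alternatives were the pseudocount, filter, limit, scaling and control library.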

Additional observations from a re-analysis of the deposited data

How the results depend on the processing

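The number of members called kept within 1.5 times its main value, or was the same, under 34 of 38 alternatives. Part of this was fixed beforehand. With 0 reads in the control, Myod1 and Myog stayed called in the Myod1 comparison under every setting run. In the other comparisons they had 0 reads in both libraries and could not be called. In the Myod1 comparison a 4-fold limit gave 3 in place of 5. In the Setdb1 comparison a pseudocount of 0.1 gave 2 in place of 1 (Mef2b higher, Mef2c lower) and a 4-fold limit gave 0. Between the controls a pseudocount of 0.1 gave 1 (Mef2b) in place of 0. The log2 ratio of the summed Mef2 FPKM was 1.74 with Myod1 expression and moved to 1.35 under the column sum, 1.55 under the 75th percentile, 1.56 under the recovered reads and 2.22 with the other control. With Pparg expression it was -0.33 and moved to -0.23 under the column sum, -0.17 under the recovered reads and 0.14 with the other control. With Setdb1 knockdown it was 0.10 and moved to -0.37 with the other control. The cause was not tested. No called log2 ratio of a member changed sign under the alternatives run. The column sum shifted the Myod1 comparison's median over the compared genes by -0.28, the 75th percentile and the recovered reads by -0.12 each, and the recovered reads shifted the Pparg comparison's by 0.10. In that order they gave 1238 higher and 1907 lower genes, 1489 and 1334, and 1465 and 1286 in the Myod1 comparison, where the deposited values gave 1798 and 970. No paired analysis was possible because each group has 1 library, and leaving out a replicate could not be done. Depth limits Mef2b, with 6 to 77 reads, Myf5 and Myf6.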
